A study of Homo sapiens with 15 samples.

Results

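H3K4me3 peaks away from protein-coding starts that also carry H3K27ac were compared between a breast cancer cell line and its metastatic sub-populations. A peak was included when it was under 4000 bp long, lay over 10 kb from every protein-coding transcript start of the GENCODE annotation in hg19, and shared at least 1 bp with an H3K27ac peak. This rule gave 5394 of 22572 H3K4me3 peaks (23.9%), which shared bases with 5153 of the 62195 H3K27ac peaks. They are called distal double-marked peaks below. MDA-MB-231, the unselected parental population (Par), is a triple-negative, claudin-low line from human breast cancer. LM2 was derived from it by selection in mice for growth in the lung, and BrM2 by selection for growth in the brain. Each of the 3 lines had 2 ChIP-seq replicates per mark, the lines carried no engineered change in the labels, and all were grown untreated with 10% serum for 3 days. Each line is 1 cell population, and the replicates are called biological in the study's methods without a statement on separate cultures, so p-values measure only the spread between these libraries.

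H3K4me3 is deposited around active transcription starts and is densest at CpG-rich promoters, whereas H3K27ac marks active promoters and active enhancers. Strong enhancers can carry some H3K4me3, and so can the starts of long noncoding RNAs, microRNA precursors and alternative transcripts that lie far from any protein-coding promoter. A distal peak with both marks can therefore be a noncoding promoter, an unannotated start or an enhancer, and the marks alone do not separate these. AP-1, the FOS and JUN factors, is a well-known factor of open enhancers in mesenchymal-like breast cancer cells, and SP/KLF and ETS factors are the usual ones of CpG-rich promoters.

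The sequences at the centre of 6 of these peaks are shown because they span the range of the set, from a CpG-rich noncoding promoter to DNA with few CpG dinucleotides and none of the motifs, and because each returns below with its counts. Each line gives 300 bp of the reference (GRCh37, the assembly behind hg19, plus strand, 5′ to 3′). Capitals mark the letters of AP-1 (TGANTCA), SP/KLF (GGGCGG) and ETS (CCGGAA) motifs, searched on both strands.
MIR17HG: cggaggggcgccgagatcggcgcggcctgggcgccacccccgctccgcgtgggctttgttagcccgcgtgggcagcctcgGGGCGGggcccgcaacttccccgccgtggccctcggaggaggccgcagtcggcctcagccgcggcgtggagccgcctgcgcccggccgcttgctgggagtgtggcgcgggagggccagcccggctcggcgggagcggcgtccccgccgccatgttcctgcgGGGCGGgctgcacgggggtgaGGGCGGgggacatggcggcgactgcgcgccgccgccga
near RNF32: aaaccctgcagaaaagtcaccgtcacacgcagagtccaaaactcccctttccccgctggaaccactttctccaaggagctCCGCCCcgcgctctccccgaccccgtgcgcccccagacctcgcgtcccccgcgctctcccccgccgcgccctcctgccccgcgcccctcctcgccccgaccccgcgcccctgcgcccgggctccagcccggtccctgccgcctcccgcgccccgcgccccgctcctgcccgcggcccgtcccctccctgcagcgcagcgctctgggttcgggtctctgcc
near GALNT9: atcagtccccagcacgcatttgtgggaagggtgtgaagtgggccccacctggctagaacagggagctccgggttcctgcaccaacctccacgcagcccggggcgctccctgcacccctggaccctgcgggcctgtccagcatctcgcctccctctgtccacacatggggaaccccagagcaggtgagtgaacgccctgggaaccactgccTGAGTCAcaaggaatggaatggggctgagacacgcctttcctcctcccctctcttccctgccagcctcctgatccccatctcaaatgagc
near MSI2: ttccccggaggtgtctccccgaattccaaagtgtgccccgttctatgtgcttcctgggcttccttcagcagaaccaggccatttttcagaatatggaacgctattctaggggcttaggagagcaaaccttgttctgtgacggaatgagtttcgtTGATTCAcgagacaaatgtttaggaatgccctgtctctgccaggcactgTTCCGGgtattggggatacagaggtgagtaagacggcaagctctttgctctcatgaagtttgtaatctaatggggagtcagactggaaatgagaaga
near DPYD: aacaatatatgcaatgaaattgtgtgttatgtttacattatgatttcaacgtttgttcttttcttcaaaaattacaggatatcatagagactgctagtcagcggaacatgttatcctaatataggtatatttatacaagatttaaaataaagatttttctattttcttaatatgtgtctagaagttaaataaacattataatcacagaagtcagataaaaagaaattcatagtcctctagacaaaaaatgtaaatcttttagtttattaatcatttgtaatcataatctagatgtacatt
near ADAMTS5: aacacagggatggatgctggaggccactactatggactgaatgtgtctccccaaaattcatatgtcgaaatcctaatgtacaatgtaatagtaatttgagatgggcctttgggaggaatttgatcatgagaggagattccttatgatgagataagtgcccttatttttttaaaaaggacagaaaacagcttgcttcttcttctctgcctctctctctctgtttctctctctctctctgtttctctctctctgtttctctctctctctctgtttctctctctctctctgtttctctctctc
MIR17HG, the host transcript of an oncogenic microRNA cluster, lies at chr13:92000801-92001100 with 47 CpG dinucleotides, 80.7% GC and 3 SP/KLF matches. The sequence near RNF32, at chr7:156409306-156409605, has 37 CpG dinucleotides and 76.0% GC. The stretch in a GALNT9 exon (chr12:132861355-132861654) and the one in an intron of MSI2 (chr17:55523125-55523424) each hold 1 AP-1 match and 9 CpG dinucleotides. The stretch near DPYD (chr1:98554107-98554406) has 2 CpG dinucleotides and 24.3% GC, and the one near ADAMTS5 (chr21:28941514-28941813) has 1 and 41.3% GC, with none of the 3 motifs in these letters.

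The libraries held 3489607 to 9839629 reads in peaks for H3K4me3 and 1994996 to 6450028 for H3K27ac. All counts below, unless called raw, are normalized counts, that is, counts divided by the DESeq2 size factor of the library. Values per line are given as replicate 1 and replicate 2. Replicate numbers mark a shared difference, since deviations from the line means over all peaks correlated between same-numbered libraries with r of 0.788 to 0.843 for H3K4me3 and 0.407 to 0.607 for H3K27ac. As a check of the cell type, promoters of KRT8, KRT18, EPCAM, VIM, ZEB1 and FN1 carried H3K4me3, CDH1 was low (10.9 to 35.5 counts per kb), KRT5, KRT14 and CDH2 had no promoter peak, and neither had the leukocyte, endothelial and hepatocyte genes PTPRC, CD3E, CDH5 and ALB. Of the neuronal genes, RBFOX3 had no promoter peak and SNAP25 had 1, at 4.79 to 64.4 counts per kb.

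Most distal double-marked peaks lay outside protein-coding genes. Of the 5394, 3426 (63.5%) were intergenic, 1552 (28.8%) intronic and 416 (7.71%) overlapped an exon of a protein-coding gene. Only protein-coding genes were used for this, so an intergenic peak can lie in a noncoding RNA gene, as MIR17HG does. The nearest protein-coding start was a median of 42088 bp away and at most 2154649 bp. It lay 10 to 50 kb away for 3008 peaks, 50 to 100 kb for 1030, 100 to 500 kb for 1132 and over 500 kb for 224. At the limits of the rule, the peak just inside at 10001 bp had a mean of 231 normalized H3K4me3 counts and the peak just outside at 10000 bp had 18.8, while the longest inside (3977 bp) had 77.4 and the next longest outside (4068 bp) had 83.8. By chromosome, they made up between 11.2% of the H3K4me3 peaks on chromosome 19 and 36.5% on chromosome 13. Of the 5394, 674 lay within 10 kb of a transcript of a coding gene that is not itself annotated as protein-coding.

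H3K27ac usually extended beyond the H3K4me3. Of the peaks, 3746 (69.4%) were covered by H3K27ac from end to end, and the H3K27ac peaks involved had a median length of 2246 bp, against 1468 bp over all H3K27ac peaks and 734 bp for the H3K4me3 peaks themselves. An H3K27ac peak of 10 kb or more held 530 of them (9.83%), and 203 H3K27ac peaks were shared by 2 or more distal peaks. H3K27ac density was a median of 22.2 counts per kb at these peaks and 18.5 over all H3K27ac peaks.

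H3K4me3 itself was low. The mean normalized H3K4me3 count per kb had a median of 19.6 (quartiles 12.9 to 38.7), against 133 (76.7 to 204) at the 12037 promoter peaks under 4000 bp, defined as peaks within 2 kb of a protein-coding start, and 15.6 (12.7 to 21.4) at the 1770 distal peaks without H3K27ac. At 243 peaks (4.51%) the density exceeded the promoter median. At 1139 peaks (21.1%) the mean count reached 50, whereas 1014 had 0 counts in at least 1 library.

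**Figure D1:**
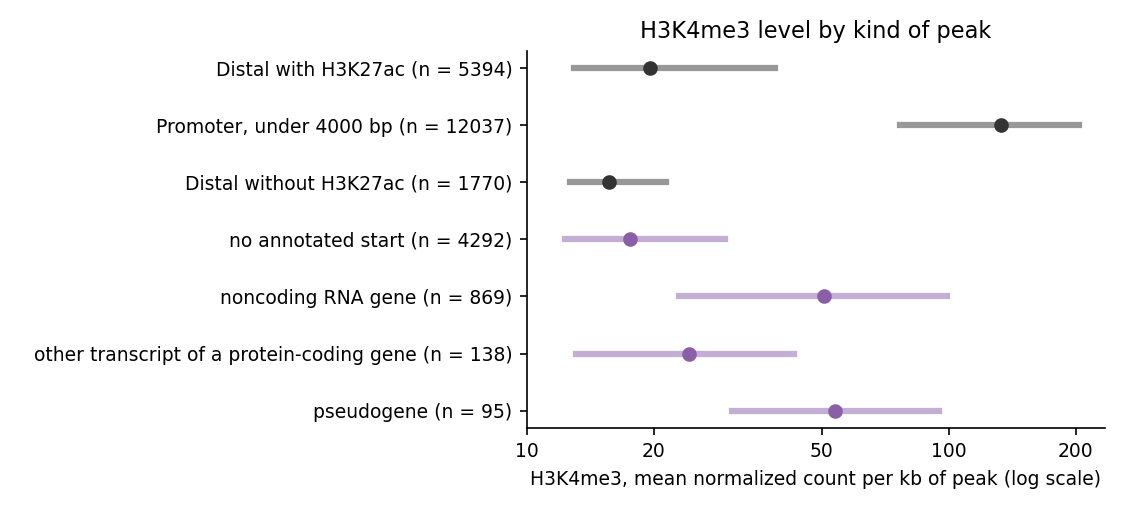
H3K4me3 density by kind of peak, as mean normalized count per kb on a log axis, with points for medians and bars from the first to the third quartile. Distal double-marked peaks (median 19.6) lie near distal peaks without H3K27ac (15.6) and far below promoter peaks (133), and those with a noncoding RNA or pseudogene start (50.5 and 53.7, purple) lie above those with no annotated start (17.5).

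The 5 highest levels belonged to 3 starts of noncoding RNAs, 1 peak in an exon and 1 beside a centromere. MIR17HG (chr13:91999078-92002825) had 375 H3K4me3 counts per kb, with 1687 and 975 normalized counts (Par), 2231 and 1228 (LM2) and 1382 and 929 (BrM2). LINC01003 (chr7:152159817-152162820) had 376 counts per kb, ZNF767P, a transcribed zinc-finger pseudogene, 402 counts per kb, and a KDM2B exon peak (chr12:121903686-121906110) 362 counts per kb, KDM2B being a histone demethylase that binds CpG islands. These 4 peaks were CpG-rich, and replicate 1 exceeded replicate 2 in every line. The top value, 835 counts per kb, came from a peak 645023 bp from FAM72B (chr1:121484435-121485530) beside the centromere of chromosome 1, where reads from near-identical copies can be placed wrongly and the level is uncertain. Other well-known noncoding RNAs also held high peaks, and these were not called between lines for H3K4me3 without the replicate block. KCNQ1OT1, an imprinted antisense RNA, had 216 counts per kb, NORAD, a regulator of Pumilio proteins, 213 counts per kb, DANCR 202 counts per kb and PVT1, the neighbour of MYC, 201 counts per kb. With the replicate block each of these 4 was called for H3K4me3 in at least 1 comparison, with adjusted p from DESeq2 of 0.00442 (KCNQ1OT1) and 0.0293 (DANCR) in LM2 against Par, and 0.0444 (NORAD) and 0.0085 (PVT1) in BrM2 against Par. MIR17HG, LINC01003, ZNF767P and the peak near FAM72B were called in that fit too, and the KDM2B peak was not.

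A noncoding RNA start was present in a minority of the peaks and went with higher H3K4me3. Such a start lay inside 869 peaks (16.1%), of which 846 held a lncRNA start and 22 a miRNA start. The same share was 20.5% for promoter peaks and 9.55% for distal peaks without H3K27ac. A further 138 peaks held a start of another transcript of a coding gene, 95 a pseudogene start, and 4292 (79.6%) no annotated start. The median density was 50.5 counts per kb with a noncoding RNA start, 53.7 with a pseudogene start, 24.3 with another transcript of a coding gene and 17.5 with no annotated start. CpG-rich sequence, set as over 55% GC with an observed to expected CpG ratio over 0.65, was found in 28.1%, 46.3%, 15.9% and 9.67% of these classes. H3K27ac density differed less, with medians of 24.97, 24.8, 24.3 and 22.1 counts per kb.

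Sequence shifted along the H3K4me3 level. The peaks were ranked by H3K4me3 density and cut into 5 equal groups. AP-1 letters were found in the central 300 bp of 27.6% of the peaks in group 1, the lowest, and in 17.5%, 16.1%, 13.2% and 4.45% of groups 2 to 5. CpG-rich peaks went the other way, from 1.30% through 3.15%, 6.49% and 13.3% to 42.9%, and peaks with a noncoding RNA start made up 6.77%, 6.39%, 8.53%, 16.7% and 42.2%. The H3K27ac peak was longest in group 1, at a median of 4328 bp, and measured 1734 bp in group 5. These are descriptions of the ranked peaks, whose base composition and length also change along the rank, with a median GC of 51.6% in group 1 and 58.0% in group 5. Over the whole set the AP-1 letters occurred in 15.8% of the central windows, against 3.76% at promoter peaks, 9.44% at distal peaks without H3K27ac and 8.05% of all H3K4me3 peaks. RUNX letters (TGTGGTT) occurred in 6.10% against 2.43%, 2.88% and 3.66%, and TEAD letters (GGAATGT) in 4.76% against 2.11%, 2.94% and 3.03%. GATA letters (AGATAA) were also more frequent, with 10.7% against 5.34%, 7.68% and 7.30%, and TATA letters (TATAAA), with 9.90% against 4.07%, 8.59% and 6.41%. CTCF letters occurred in 2.24% against 2.15%, 2.88% and 2.26%, and NRF1 letters in 1.13% against 2.86%, 0.847% and 2.06%. The median GC was 52.5% against 57.1%, 54.8% and 55.6%, and its part in these shares was not tested. SP/KLF letters were less frequent than at promoters, with 27.9% against 58.9%, 25.1% and 45.6%, and so were ETS letters, with 9.29% against 17.1%, 9.10% and 13.5%. A letter match is a description and not a bound site.

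**Figure D2:**
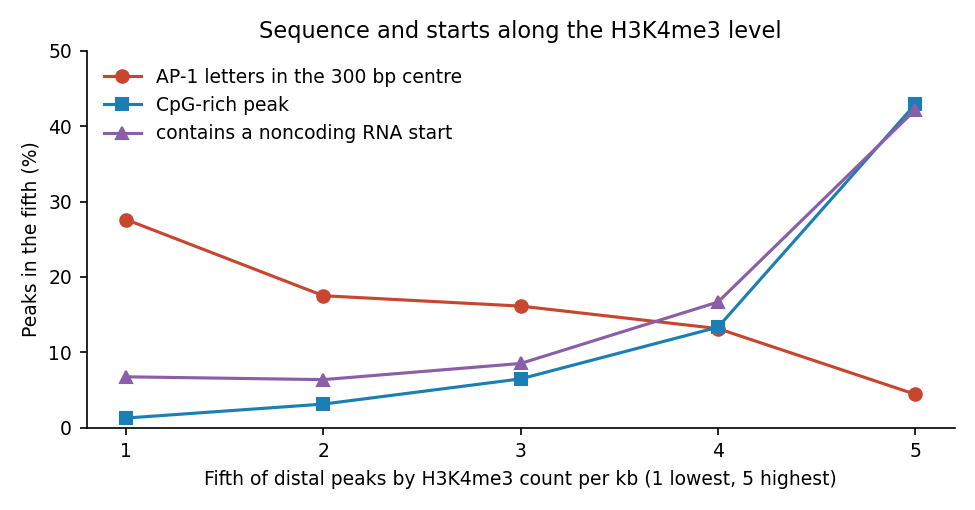
Share of distal double-marked peaks (percent) with AP-1 letters in the central 300 bp, with CpG-rich sequence and with a noncoding RNA start, in 5 equal groups from the lowest (1) to the highest (5) H3K4me3 density. AP-1 letters fall from 27.6% to 4.45%, while CpG-rich peaks rise from 1.30% to 42.9% and noncoding RNA starts from 6.77% to 42.2%.

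The question for the set as a whole was whether a metastatic line placed more of its reads there. Distal double-marked peaks took a share of the H3K4me3 reads in peaks of 3.87% and 4.82% (Par), 4.02% and 5.02% (LM2) and 4.47% and 5.34% (BrM2). For H3K27ac the shares were 14.8% and 14.9% (Par), 14.9% and 14.9% (LM2) and 15.4% and 15.3% (BrM2). The H3K4me3 ranges of the lines overlapped and followed the replicate number, and within each replicate number the share was lowest in Par and highest in BrM2. Both BrM2 H3K27ac libraries lay above the other 4. With 2 libraries a line, an exact two-sided permutation test that ignores the replicate number cannot give a p below 0.333, which was its value for BrM2 H3K27ac against Par and against LM2, and p was 0.667 for the other 4 comparisons.

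More distal double-marked peaks were higher than lower in LM2 than in Par. For H3K4me3, 110 peaks rose and 16 fell among the 4663 tested (DESeq2, adjusted p under 0.05), and the 2.70% called compares with a background of 2.51% over all H3K4me3 peaks (1.97% higher and 0.538% lower). The share of calls was thus close to the background. With the replicate number as a block, 258 rose and 89 fell, and the 8.11% called lay below the 14.4% of all peaks in that fit (8.9% higher and 5.49% lower). Without Par replicate 2 the count of calls was 16, and it was 40 to 54 without any other LM2 or Par library. For H3K27ac, 202 of the peaks these regions overlap rose and 40 fell of 4758 tested, or 5.09% against a background of 3.63% (2.72% higher and 0.907% lower), and 260 rose and 106 fell with the block (background 5.44%, or 3.6% higher and 1.84% lower). Leaving out 1 LM2 or Par library gave 74 to 103 H3K27ac calls. Depth differs between the set and the backgrounds. The median of the mean H3K4me3 counts was 12.8 in the set and 128 over all H3K4me3 peaks. The H3K27ac peaks of the set were longer and denser than all H3K27ac peaks, as given above. The part of depth in the shares called was not tested, here or in the other comparisons. The median log2 fold change was 0.02 for H3K4me3, as over all peaks (0.02), and -0.03 for H3K27ac (-0.02 over all peaks), so the middle of the set stayed close to that of all peaks.

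The strongest H3K4me3 gains in LM2 lay in gene-poor or intergenic sequence and in a GALNT9 exon. GALNT9 encodes an enzyme that starts mucin-type O-glycosylation, and its exon peak (chr12:132859826-132863184, 25545 bp from the nearest protein-coding start but over the start of another transcript of a coding gene and within 2 kb of the lncRNA start ENSG00000277011) had 3.67 and 10 H3K4me3 counts (Par), 236 and 322 (LM2) and 0 and 11.2 (BrM2). H3K27ac at the same place counted 18.3 and 15 (Par), 47.1 and 72 (LM2) and 20.5 and 19.3 (BrM2). Both marks were thus highest in the LM2 libraries, and neither was called between BrM2 and Par. The log2 fold change of LM2 against Par was 5.31 ± 1.5 (SE) for H3K4me3 (DESeq2, adjusted p = 0.0219) and 1.82 ± 0.51 for H3K27ac (DESeq2, adjusted p = 0.0155). Of the 30 H3K27ac peaks within 1 Mb with a mean count of at least 20, 6 were higher and 24 lower in LM2. Every count of neighbouring H3K27ac peaks below uses this limit too. The mean runs over all libraries, so a peak can pass the limit through the lines where it is high. The direction of neighbours is therefore no separate support.

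A peak that gained both marks in both metastatic lines lay 1152616 bp from CTNNA2, the neuronal alpha-catenin (chr2:81708016-81710378). It had 3.67 and 10 H3K4me3 counts (Par), 116 and 165 (LM2) and 109 and 157 (BrM2), and 5.23 and 2 H3K27ac counts (Par), 54.4 and 49.3 (LM2) and 62.4 and 65.5 (BrM2). The 4 metastatic libraries all lay above both Par libraries in both marks. H3K4me3 rose by 4.20 ± 0.58 in LM2 (DESeq2, adjusted p = 7.3e-10) and 4.12 ± 0.58 in BrM2 (DESeq2, adjusted p = 7.6e-10). The start of CASC9, a cancer-associated lncRNA, also rose in H3K4me3 in both lines on chromosome 8 (76236025 to 76236954), with 0 and 3.08 H3K4me3 counts (Par), 62.5 and 36.5 (LM2) and 21.1 and 22.4 (BrM2). Its H3K27ac was low, with raw counts over both libraries of a line of 0 (Par), 52 (LM2) and 11 (BrM2). All 6 other H3K27ac peaks within 1 Mb of CASC9 that reached a mean count of 20 were also higher in LM2, with a median log2 fold change of 1.33. As stated above, that limit can be passed through LM2 itself.

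The 16 H3K4me3 losses in LM2 included 10 peaks with a noncoding RNA start. Such starts lay in 844 of the 4663 peaks tested and in 25 of the 110 that rose. They also lay in 528 of the 1139 peaks with a mean count of at least 50, and the part of that depth was not tested. The same share was not counted for losses over all H3K4me3 peaks. AFAP1-AS1, an antisense lncRNA of the actin-binding protein gene AFAP1 (chr4:7754738-7758550), had 99.2 and 139 H3K4me3 counts (Par), 22.9 and 40.8 (LM2) and 163 and 257 (BrM2). Its H3K27ac counts were 43.6 and 71.1 (Par), 7.85 and 17.7 (LM2) and 28.3 and 54 (BrM2). The LM2 libraries were therefore the low ones in both marks, by 1.87 ± 0.46 for H3K4me3 (DESeq2, adjusted p = 0.0042) and 2.22 ± 0.55 for H3K27ac (DESeq2, adjusted p = 0.00413) on the log2 scale. The lncRNA ENSG00000268119, 41484 bp from ZNF429 (chr19:21645903-21646920), fell in both metastatic lines, with 132 and 143 H3K4me3 counts (Par), 15.2 and 32.3 (LM2) and 26.4 and 27.4 (BrM2). LINC03067 (chr5:1594044-1595302) and, on the same stretch, ENSG00000291079 (chr5:1633240-1634738) fell together in LM2. LINC03067 had 187 and 189 H3K4me3 counts in Par and 38.1 and 57.2 in LM2, and 15 of 16 H3K27ac peaks within 1 Mb of it were lower in LM2, with a median log2 fold change of -0.54.

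**Figure D3:**
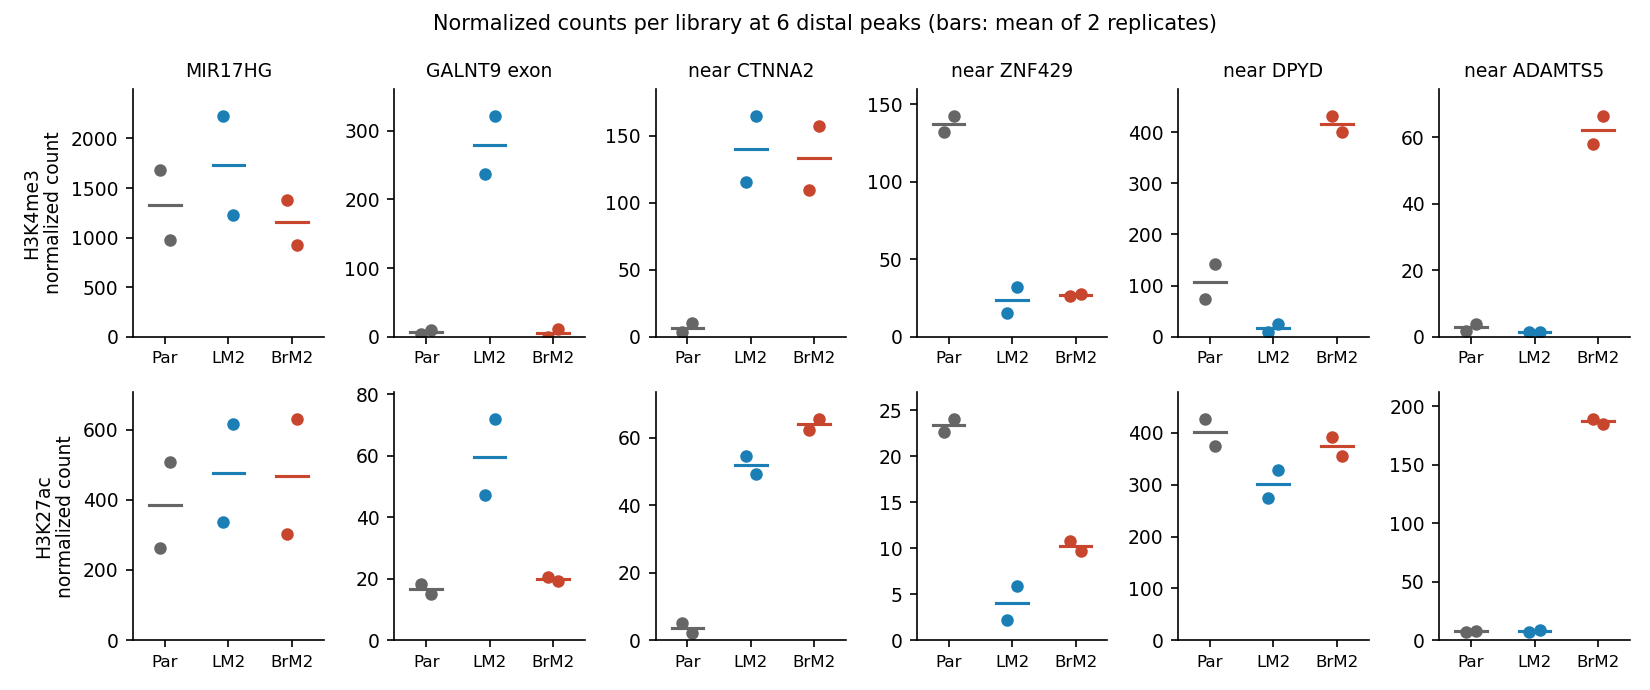
Normalized H3K4me3 (top) and H3K27ac (bottom) counts in each library at 6 distal double-marked peaks, with points for the 2 replicates of a line and bars for their mean, each panel starting at 0. MIR17HG varies with the replicate number, the GALNT9 exon peak is high in LM2, the peak near CTNNA2 is up in both metastatic lines, the one near ZNF429 is down in both, the one near DPYD has H3K4me3 lowest in LM2 and highest in BrM2 with H3K27ac between 274 and 427, and the one near ADAMTS5 has both marks in BrM2.

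BrM2 differed from Par at more of these peaks. H3K4me3 rose at 174 and fell at 35 of 5220 tested (4.0% called, against a background of 3.61%, or 2.82% higher and 0.791% lower). With the replicate block, 347 rose and 145 fell (9.43% of those tested, background 17.7%, or 8.55% higher and 9.11% lower), and 66 to 101 were called when a BrM2 or Par library was left out, the lowest count being that without Par replicate 2. H3K27ac rose at 287 and fell at 101 of 4854 (7.99%, background 5.29%, or 3.62% higher and 1.67% lower), with 382 and 193 under the block (background 8.13%, or 5.14% and 2.99%) and 101 to 165 calls without a BrM2 or Par library, the lowest without BrM2 replicate 1. The median log2 fold change was 0.10 for H3K4me3 (-0.02 over all peaks) and 0.03 for H3K27ac (-0.02). It ranged from -0.17 to 0.53 for H3K4me3 when 1 library was left out, so its direction rests on single libraries.

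Several BrM2 gains stood far from any protein-coding start. The peak 601305 bp from ADAMTS5, an aggrecan-cleaving protease (chr21:28940712-28942616), had 1.84 and 3.85 H3K4me3 counts (Par), 1.52 and 1.59 (LM2) and 58 and 66.6 (BrM2). Its H3K27ac counts were 6.97 and 8.01 (Par), 7.29 and 8.87 (LM2) and 189 and 185 (BrM2). Both BrM2 libraries lay far above the other 4 in both marks, with log2 fold changes against Par of 4.31 ± 0.87 for H3K4me3 (DESeq2, adjusted p = 8.1e-05) and 4.65 ± 0.50 for H3K27ac (DESeq2, adjusted p = 1.0e-16). All 5 other H3K27ac peaks within 1 Mb that reached a mean count of 20 were higher in BrM2, with a median log2 fold change of 4.66. At such a change the limit is reached mostly through BrM2, so this direction is no separate support. The lncRNA start ENSG00000258081, 245424 bp from the neuronal splicing factor NOVA1 (chr14:27312663-27313205), had 0 H3K4me3 counts in all Par and LM2 libraries and 29 and 29.9 in BrM2. With 3 counts taken as the limit over a group, BrM2 was at least 18.2-fold higher than Par and at least 25.1-fold higher than LM2. H3K27ac there counted 0 and 1 (Par), 2.80 and 2.96 (LM2) and 65.3 and 54 (BrM2).

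The lncRNA start ENSG00000288552 (chr13:89813876-89815482), 1489006 bp from the synaptic gene SLITRK5, showed the same order, with 5.51 and 1.54 H3K4me3 counts (Par), 3.05 and 3.71 (LM2) and 80.4 and 117 (BrM2). H3K4me3 there rose by 5.09 ± 0.84 (DESeq2, adjusted p = 3.5e-07) and H3K27ac by 5.24 ± 0.80 (DESeq2, adjusted p = 2.6e-08) on the log2 scale against Par. Other peaks rose in LM2 and further in BrM2. The peak 807809 bp from GOT2, a mitochondrial aminotransferase (chr16:59576039-59577887), had 0 H3K4me3 counts in both Par libraries, 9.15 and 9.53 in LM2 and 62 and 71.6 in BrM2, and 4.36 and 6.01 H3K27ac counts (Par), 41.5 and 31.5 (LM2) and 139 and 143 (BrM2). BrM2 exceeded LM2 there by 2.84 ± 0.66 in H3K4me3 (DESeq2, adjusted p = 0.00139) and 1.93 ± 0.40 in H3K27ac (DESeq2, adjusted p = 2.2e-04). The lncRNA start ENSG00000277693 (chr21:11168475-11171925) and the peak near POTEH (chr22:16191499-16192630) also rose in both lines, but they lie in duplicated sequence next to centromeres, where the placement of reads is uncertain.

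The losses in BrM2 also included noncoding RNA starts, 14 of the 35. These starts lay in 866 of the 5220 peaks tested and in 38 of the 174 that rose, and the same limits apply as for LM2. FAM86B3P (chromosome 8, 8084578 to 8086902), a pseudogene of a multigene family, had 93.7 and 136 H3K4me3 counts (Par), 152 and 173 (LM2) and 19.8 and 26.8 (BrM2), and the family's near-identical copies make its count uncertain. All 25 other H3K27ac peaks within 1 Mb that reached a mean count of 20 were lower in BrM2, with a median log2 fold change of -2.70. As stated above, that limit can be passed through the other lines. GP6-AS1, antisense to the platelet collagen receptor gene GP6 (chr19:55517197-55518533), had 33.1 and 47 H3K4me3 counts (Par), 62.5 and 68.8 (LM2) and 1.32 and 6.85 (BrM2). Its H3K27ac counts were 45.3 and 31 (Par), 78.5 and 77.9 (LM2) and 10.7 and 7.71 (BrM2), and unlike FAM86B3P its 52 neighbours were split, with 25 higher and 27 lower in BrM2. LINC01505 (chr9:109040444-109041577) fell by 4.90 ± 0.98 in H3K4me3 (DESeq2, adjusted p = 7.7e-05) and 2.62 ± 0.50 in H3K27ac (DESeq2, adjusted p = 2.7e-05) on the log2 scale, from 33.1 and 64.7 H3K4me3 counts in Par to 1.32 and 1.87 in BrM2.

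The metastatic lines were also compared with each other directly. H3K4me3 was higher in BrM2 at 119 peaks and lower at 70 of 5394 tested (3.50%, background 3.18%, or 2.05% and 1.13%), with 333 and 274 under the replicate block (background 22%, or 8.99% and 13%) and 34 to 78 calls without a BrM2 or LM2 library, the lowest without BrM2 replicate 2. H3K27ac was higher at 112 and lower at 96 of 4661 (4.46%, background 2.94%, or 1.71% and 1.22%), with 235 and 161 under the block (background 6.17%, or 3.65% and 2.52%) and 23 calls without BrM2 replicate 1. The split of the H3K27ac calls turned with total-count size factors, to 96 higher and 121 lower, with promoter-peak size factors, to 88 and 91, and with a filter of 10 counts in every library, to 61 and 86. Of the 725 CpG-rich peaks tested, 6 had more H3K4me3 and 21 less in BrM2 than in LM2, against 113 and 49 of the 4669 others. Neither was that difference tested, nor were all H3K4me3 peaks split in this way. Against Par, 15 CpG-rich peaks rose and 5 fell in LM2, and 11 rose and 12 fell in BrM2.

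At the LM2 end was a peak 177847 bp from CDCA7, a MYC target (chr2:174397539-174398221), with 1.84 and 0.771 H3K4me3 counts (Par), 70.1 and 58.2 (LM2) and 0 and 0.622 (BrM2). Its H3K27ac counts were 5.23 and 2 (Par), 30.9 and 25.6 (LM2) and 1.95 and 0 (BrM2). A peak in an intron of SWT1, 49789 bp from IVNS1ABP (chr1:185226493-185227005), had 42.7 and 29.1 H3K4me3 counts in LM2 and 0 in both BrM2 libraries, so that BrM2 was at least 25.7-fold lower. The CpG-rich peak near RNF32 (chr7:156409009-156409903) was also highest in LM2, with 27.6 and 29.3 H3K4me3 counts (Par), 142 and 132 (LM2) and 10.5 and 15.6 (BrM2), a log2 difference between BrM2 and LM2 of -3.35 ± 0.51 (DESeq2, adjusted p = 1.5e-08). H3K27ac near RNF32 counted 29.7 and 33.5 in LM2 and 8.77 and 3.86 in BrM2 and was not called (DESeq2, adjusted p = 0.0627).

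Counted over all peaks of the set, 56 were called higher in H3K4me3 in both metastatic lines, 53 in LM2 without a call in BrM2 and 116 in BrM2 without a call in LM2. Both contrasts share the Par libraries. These were 24.9%, 23.6% and 51.6% of the 3 classes together, and over all H3K4me3 peaks the shares were 21.2%, 27.1% and 51.7%. For H3K27ac the numbers were 102, 100 and 185 (26.4%, 25.8% and 47.8%, against 25.1%, 27.1% and 47.8% over all H3K27ac peaks). A missing call is not a difference, and of the 53 and 116 H3K4me3 peaks, 24 and 72 (45.3% and 62.1%) were also called between BrM2 and LM2 directly, as were 33.8% and 61.3% over all peaks. Of the 100 and 185 H3K27ac peaks, 28 and 62 were (28% and 33.5%, against 25.3% and 32.9%). Both directions occurred at 3 peaks for H3K4me3, among them the one near DPYD described below.

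Changes of the marks went the same way where both were called. In LM2, 49 peaks rose and 4 fell in both marks, or 42.1% of the 126 peaks called in H3K4me3 and 21.1% of the 251 whose H3K27ac peak was called. In BrM2 99 rose and 12 fell (53.1% of 209 and 26.9% of 412), and between BrM2 and LM2 33 were higher and 12 lower (23.8% of 189 and 19.5% of 231). Over all 19771 pairs of an H3K4me3 peak with an H3K27ac peak, the same shares were 30% and 27.6%, 41.9% and 29.7%, and 25.6% and 28%. By DESeq2, 0 peaks were called in opposite directions in the 3 comparisons, and over all pairs the count was 0 as well. The replicate block gave 2 of them for LM2 against Par and 0 for the others, and that count was not made over all pairs. Where the mean H3K4me3 count reached 50, at 1139 peaks, changes of the marks on the log2 scale correlated with Pearson's r of 0.595, 0.642 and 0.501 and Spearman's rho of 0.325, 0.509 and 0.507. These are correlations across peaks, which are not independent replicates.

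**Figure D4:**
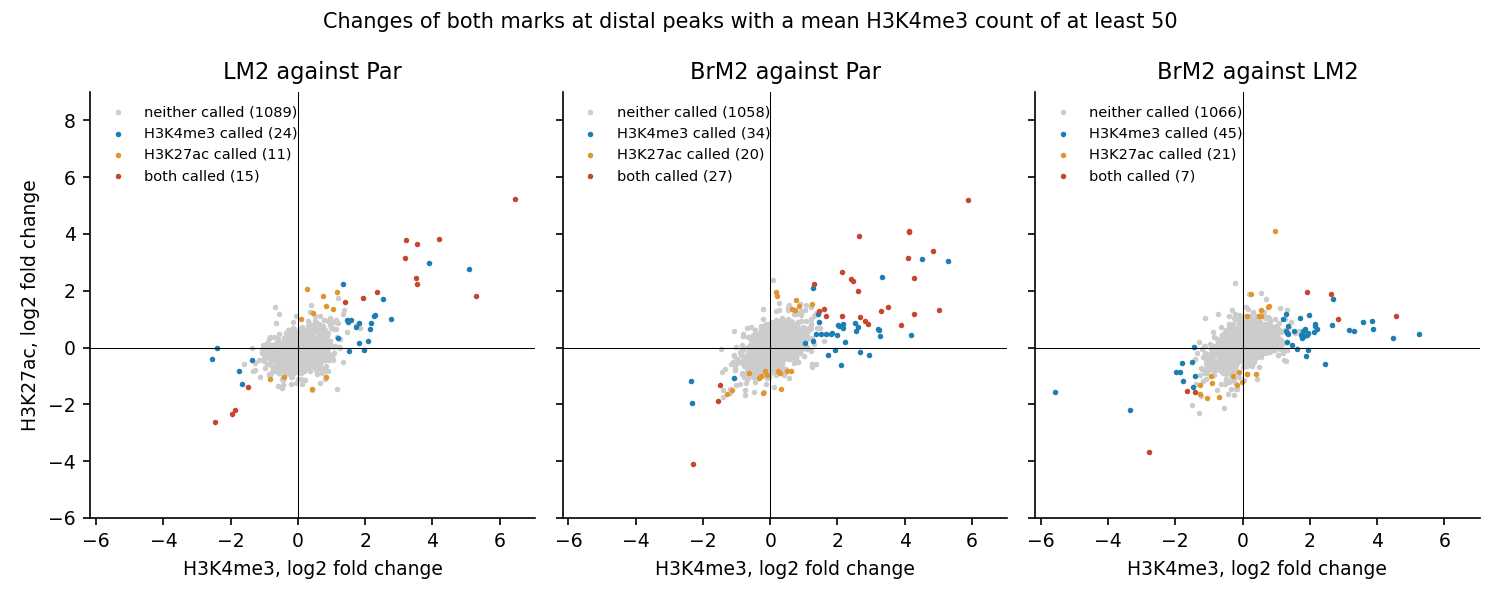
Log2 fold change of H3K27ac against that of H3K4me3 at the 1139 distal double-marked peaks with a mean H3K4me3 count of at least 50, in each comparison, with colours for calls by DESeq2 at an adjusted p under 0.05. Peaks called in both marks (15, 27 and 7) lie in the upper right and lower left, and peaks called in H3K4me3 alone (24, 34 and 45) spread along the horizontal axis.

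At some peaks H3K4me3 changed far more than H3K27ac. The difference of the 2 log2 fold changes was tested at each of 19771 peak pairs with a Wald test and Benjamini-Hochberg adjustment. It was called at 2 of the 5394 distal double-marked peaks in LM2 against Par, 16 in BrM2 against Par and 10 in BrM2 against LM2. Over all pairs it was called at 13, 33 and 28 (0.0658%, 0.167% and 0.142%). With the replicate block 17, 36 and 33 of the 5394 were called, beside 53, 102 and 105 of all pairs (0.268%, 0.516% and 0.531%). Such differences were thus rare in the set and over all pairs alike, and are not particular to the set. In all 28 calls at distal double-marked peaks without the block the H3K27ac change was the smaller in size. H3K4me3 was higher in the metastatic line or in BrM2 in 27 of them and lower in 1. It was called by itself in all 28, and H3K27ac in 7. Without 1 library of the lines compared, 0 remained in LM2 against Par, 0 to 2 in BrM2 against Par, with 0 without BrM2 replicate 2, and 1 to 4 in BrM2 against LM2. Such a fit has 1 library in an arm, takes its spread from the other lines and has fewer degrees of freedom. With all libraries, 108, 173 and 198 peaks had an unadjusted p under 0.05. The peaks described next were chosen after their values were seen. The 21 peaks lay in H3K27ac peaks with a median length of 8283 bp (2017 to 21807), against 2403.5 bp for the whole set, and H3K27ac was counted over that longer stretch, and the part of that length in these differences was not tested.

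The peak 165981 bp from DPYD, the enzyme that breaks down pyrimidines (chr1:98552586-98555928), had 73.5 and 142 H3K4me3 counts (Par), 9.15 and 24.9 (LM2) and 432 and 399.6 (BrM2). H3K27ac over the 7139-bp peak around it counted 427 and 375 (Par), 274 and 328 (LM2) and 393 and 355 (BrM2). H3K4me3 thus separated all 3 lines, whereas the H3K27ac of Par and BrM2 overlapped. Between BrM2 and LM2 the log2 difference was 4.49 ± 0.48 for H3K4me3 (DESeq2, adjusted p = 2.1e-17) and 0.32 ± 0.27 for H3K27ac (DESeq2, adjusted p = 0.711), and the H3K27ac minus H3K4me3 difference was -4.17 ± 0.55 (Wald, adjusted p = 4.4e-10). A peak 12003 bp from VIM, the mesenchymal intermediate filament gene (chr10:17255886-17258237), lay within 2 kb of the lncRNA start VIM-AS1. It had 3.67 and 18.5 H3K4me3 counts (Par), 18.3 and 18.5 (LM2) and 88.3 and 87.1 (BrM2), inside a 16368-bp H3K27ac peak with 747 and 626 counts (Par), 523 and 428 (LM2) and 719.5 and 542 (BrM2). Both BrM2 libraries lay above the other 4 in H3K4me3 near VIM, by 2.82 ± 0.63 against Par (DESeq2, adjusted p = 6.0e-04).

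In an intron of CMIP (chr16:81551211-81554578) H3K4me3 counts were 20.2 and 22.3 (Par), 71.7 and 116 (LM2) and 377 and 452 (BrM2). H3K27ac over 21807 bp rose as well but less, with 403 and 369 (Par), 633 and 572 (LM2) and 888 and 868 (BrM2), and the H3K27ac minus H3K4me3 difference was -3.09 ± 0.51 (Wald, adjusted p = 2.1e-05). In an exon of FRMD6, a gene of the Hippo pathway (chr14:52021358-52023796), H3K4me3 counted 16.5 and 35.4 (Par), 18.3 and 23.8 (LM2) and 256 and 265 (BrM2), against 602 and 381, 429 and 393, and 845 and 667 for H3K27ac. A peak 24804 bp from the kinase gene CDK17 (chr12:96819062-96821248) had 34.9 and 53.2, 39.6 and 30.7, and 335 and 346 H3K4me3 counts in Par, LM2 and BrM2. A peak 70667 bp from NFKBIZ, a nuclear IκB protein (chr3:101645244-101647648), had 16.5 and 12.3, 9.15 and 9, and 119 and 148. In these 4 peaks both BrM2 libraries lay above the other 4.

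Near the receptor gene NOTCH1, 2 of the peaks shared a 12322-bp H3K27ac peak and were high in different lines. The peak 29742 bp from its start (chr9:139470242-139473306) had 5.51 and 7.71 H3K4me3 counts (Par), 90 and 84.2 (LM2) and 14.5 and 24.9 (BrM2). The other, 24243 bp from the start (chr9:139464743-139467075), had 9.19 and 21.6 (Par), 7.62 and 34.9 (LM2) and 84.4 and 165 (BrM2). Their common H3K27ac peak counted 188 and 366 (Par), 325 and 354 (LM2) and 199 and 260.3 (BrM2), so that LM2 lay above BrM2 and the Par libraries spanned both. The log2 fold change of H3K4me3 was 3.66 ± 0.66 in LM2 at the former and 2.95 ± 0.66 in BrM2 at the latter, each against Par. The 1 call with lower H3K4me3 lay 39092 bp from SPRY4, an inhibitor of receptor tyrosine kinase signalling (chr5:141743678-141744223). H3K4me3 there counted 1.84 and 1.54 (Par), 39.6 and 30.7 (LM2) and 0 and 1.87 (BrM2), while its 14994-bp H3K27ac peak counted 734 to 931 in all 6 libraries.

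**Figure D5:**
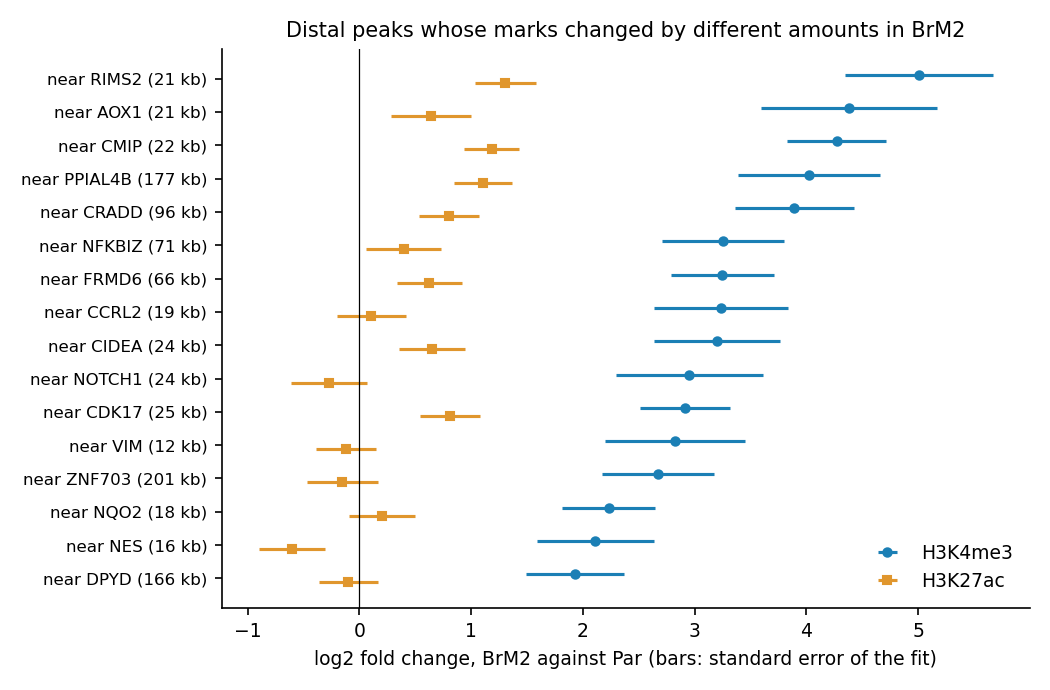
Log2 fold change of BrM2 against Par for H3K4me3 (blue circles) and H3K27ac (orange squares), with standard errors of the fit, at the 16 distal double-marked peaks whose marks changed by different amounts, named by the nearest protein-coding start and its distance. H3K4me3 changes run from 1.93 near DPYD to 5.01 near RIMS2, and H3K27ac changes from -0.61 near NES to 1.31 near RIMS2.

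A larger change of H3K27ac than of H3K4me3 was called at 0 peaks without the replicate block and at 3, 3 and 4 with it, all with a mean H3K4me3 count of at least 50. One of them lay 15039 bp from FOXA2, a pioneer factor gene, where BrM2 exceeded LM2 under the block by 1.88 in H3K27ac and 0.23 in H3K4me3 on the log2 scale (difference 1.65 ± 0.40, Wald, adjusted p = 0.0129). The 3 in LM2 against Par had H3K27ac lower and H3K4me3 higher in LM2. In both BrM2 comparisons the calls included the peak near FAM72B beside a centromere, whose level is uncertain. Other peaks with a large H3K27ac change held little H3K4me3, and there the low counts limit the comparison of the marks. In an intron of PCBP3, an RNA-binding protein gene (chr21:47294508-47295243), H3K27ac over 16028 bp counted 34.8 and 43.1 (Par), 634 and 688 (LM2) and 430 and 484 (BrM2), while H3K4me3 counted 0 and 0.771, 21.3 and 14.3, and 25 and 16.8. H3K27ac rose by 4.09 ± 0.30 in LM2 (DESeq2, adjusted p = 1.7e-37) and 3.55 ± 0.30 in BrM2 (DESeq2, adjusted p = 3.4e-27). In an intron of MSI2, the RNA-binding protein Musashi-2, H3K27ac counted 20 and 13 (Par), 274 and 265 (LM2) and 308 and 279.5 (BrM2), with H3K4me3 between 0 and 14.3 in the 6 libraries. Both peaks had H3K27ac in all 4 metastatic libraries far above Par. An intronic peak of ZNF675 (chr19:23732548-23735063) lost H3K27ac in LM2, with 426 and 365 (Par), 64.5 and 93.6 (LM2) and 587 and 582 (BrM2), and its H3K4me3 followed with 29.4 and 31.6, 9.15 and 9, and 43.5 and 79. ZNF675 differed between BrM2 and LM2 by 2.90 ± 0.29 in H3K27ac (DESeq2, adjusted p = 2.8e-19) and 2.77 ± 0.63 in H3K4me3 (DESeq2, adjusted p = 8.1e-04).

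PIEZO2, a mechanically gated ion channel gene, held a pair of peaks on chromosome 18. In its intron (chr18:10925477-10927528) H3K27ac counted 13.1 and 10 (Par), 139 and 103 (LM2) and 285 and 299 (BrM2). The other, 26083 bp from its start (chr18:11175651-11176112), counted 20.9 and 16, 28 and 27.6, and 294 and 260.3. Both were highest in BrM2, and the intronic peak was also above Par in LM2, by 3.39 ± 0.42 on the log2 scale (DESeq2, adjusted p = 2.0e-12). H3K27ac was counted over its own peak and not over these coordinates. H3K4me3 at the second of the pair was low, with raw counts over both libraries of a line of 3 (Par), 10 (LM2) and 23 (BrM2). A peak 162850 bp from CHSY1, a chondroitin synthase gene (chr15:101629060-101629403), was highest in LM2, with 45.3 and 49.1 H3K27ac counts (Par), 102 and 178 (LM2) and 21.4 and 15.4 (BrM2). Its raw H3K4me3 counts over both libraries of a line were 7 (Par), 32 (LM2) and 3 (BrM2). All 35 other H3K27ac peaks within 1 Mb that reached a mean count of 20 were higher in LM2, with a median log2 fold change of 0.71.

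Calls differed with the level and kind of peak. For H3K4me3 in BrM2 against Par, 1.58%, 2.89%, 5.75%, 6.58% and 2.97% of the tested peaks in the 5 density groups were called, from lowest to highest. For H3K27ac the same shares were 12.5%, 8.13%, 9.32%, 7.72% and 3.04%, so the least H3K4me3-rich group held the largest share of H3K27ac calls, and this order of groups 1 and 5 was the same in the other 2 comparisons (8.06% and 2.02% in LM2 against Par, 6.83% and 2.33% in BrM2 against LM2). Peaks with a noncoding RNA start were called for H3K4me3 in 4.15%, 6.005% and 5.29% of cases in LM2 against Par, BrM2 against Par and BrM2 against LM2, and peaks with no annotated start in 2.31%, 3.49% and 3.08%. For H3K27ac the noncoding starts were called in 3.88%, 6.24% and 2.79% and peaks with no annotated start in 5.36%, 8.48% and 4.997%. Depth differs between these classes and its part was not tested.

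Distal double-marked peaks at listed noncoding RNAs and near listed regulators and metastasis genes were counted against the same backgrounds as above. Of 45 listed noncoding RNA genes, 11 held 22 peaks at or within 2 kb of their starts, of which 2 rose and 0 fell in H3K4me3 in each metastatic line against Par, of 19 tested in LM2 and 21 in BrM2 (backgrounds 1.97% and 2.82% higher). By edgeR 2 were called in LM2 and 0 in BrM2, and with the replicate block 5 and 4. They were CASC9 and CASC15, a lncRNA 70286 bp from the transcription factor gene SOX4 (chr6:21664268-21666725), which had 36.7 and 41.6 H3K4me3 counts (Par), 124 and 152 (LM2) and 124 and 94.6 (BrM2). CASC15 rose by 1.81 ± 0.43 in LM2 (DESeq2, adjusted p = 0.00243) and 1.46 ± 0.43 in BrM2 (DESeq2, adjusted p = 0.0263), while H3K27ac there stayed between 5.01 and 18.5 counts in all libraries. Of the 9 peaks whose nearest protein-coding start belongs to an AP-1 gene, and the 23 nearest to RUNX, ETS and TEAD genes, 0 were called by DESeq2 in either mark, and 0 by edgeR. With the replicate block, 0 of the RUNX, ETS and TEAD peaks were called, and for AP-1 2 in BrM2 against Par in H3K27ac and, in BrM2 against LM2, 1 in H3K4me3 and 3 in H3K27ac. An unadjusted p under 0.05 from DESeq2 was seen for at most 1 AP-1 peak in H3K4me3 and 3 in H3K27ac in a comparison, and for 0 and at most 1 of the RUNX, ETS and TEAD peaks. The start of LINC01135, 29875 bp from JUN, was called in both marks in BrM2 against LM2 under the block (DESeq2, adjusted p = 6.6e-04 for H3K4me3 and 0.00842 for H3K27ac), with 151 and 141 H3K4me3 counts (Par), 79.3 and 129 (LM2) and 204 and 219.7 (BrM2). Both BrM2 libraries lay above the other 4 there. LINC01220, 13329 bp from FOS, was not called in either fit, with 178 and 257 H3K4me3 counts (Par), 212 and 292 (LM2) and 198 and 281 (BrM2). Another, near RUNX3 (chr1:25174615-25175500), had 99.2 and 55.5, 108 and 91.1, and 148 and 63.5.

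Of the 11 peaks nearest to a lung or brain metastasis signature gene, 1 rose in LM2 and 1 in BrM2 in H3K4me3, of 9 and 11 tested (backgrounds 1.97% and 2.82% higher). By edgeR 0 were called in LM2 and 1 in BrM2, so the LM2 call was lost there. The LM2 peak lay 477936 bp from TNC, the matrix protein tenascin C (chr9:118358422-118360474), and had 11 and 25.4 H3K4me3 counts (Par), 65.6 and 81 (LM2) and 48.8 and 64.1 (BrM2), with 129 and 174, 321 and 366, and 233 and 251 H3K27ac counts. TNC thus had both marks above Par in both metastatic lines, called in LM2 by 1.93 ± 0.55 (DESeq2, adjusted p = 0.0238) and 1.18 ± 0.29 (DESeq2, adjusted p = 0.0031). The BrM2 peak overlapped an exon of ST6GALNAC5, a sialyltransferase known as a mediator of brain metastasis (chr1:77460922-77462320), and the start of another transcript of a coding gene, with 5.51 and 6.94 H3K4me3 counts (Par), 7.62 and 9.53 (LM2) and 79.1 and 69.1 (BrM2). H3K4me3 at ST6GALNAC5 rose by 3.53 ± 0.69 against Par (DESeq2, adjusted p = 4.7e-05), and H3K27ac with 9.58 and 5.01, 11.8 and 11.8, and 26.3 and 17.4 counts was not called (DESeq2, adjusted p = 0.246).

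Of the 16 peaks nearest to a gene of the mesenchymal state or TGF-beta signalling, 2 of 15 tested rose in H3K4me3 in BrM2 (background 2.82% higher). By edgeR 2 were called as well. They lay near VIM as above and 251587 bp from the ligand gene TGFB2 (chr1:218771164-218772285), the latter with 0 and 3.08 H3K4me3 counts (Par), 1.52 and 2.65 (LM2) and 31.6 and 34.2 (BrM2). In H3K27ac, 1 of 16 tested rose in both lines (backgrounds 2.72% and 3.62% higher in LM2 and BrM2). It lay 502383 bp from ZEB2, a repressor of epithelial genes (chr2:145781007-145781331), with 20.9 and 15 H3K27ac counts (Par), 201 and 181 (LM2) and 212 and 145 (BrM2) and log2 fold changes of 3.41 ± 0.39 (DESeq2, adjusted p = 1.4e-14) and 3.31 ± 0.40 (DESeq2, adjusted p = 1.9e-13). Near SMAD7, an inhibitor of TGF-beta receptors, a CpG-rich peak (chr18:46501577-46503078) had 237 and 186 H3K4me3 counts (Par), 273 and 244 (LM2) and 281 and 275 (BrM2) and was not called. The gene names give the nearest protein-coding start, and no regulated gene is meant.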

How the data were processed

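ChIP-seq of H3K4me3 and H3K27ac in 3 cell lines gave 12 libraries, and 3 input samples were not used. The authors called broad peaks for each mark on its merged libraries and deposited raw counts per peak and library, with reads extended to 150 bp. The submitters' processing notes name CASAVA 1.8.2, Trimmomatic 0.32, Bowtie2 2.3.4.3, Picard 2.18.21, MACS2 2.1.2, HOMER 4.10 and featureCounts, with hg19. From these counts, peaks were annotated with bedtools 2.31.1 and GENCODE release 44 lifted to hg19, and sequence was read with pysam 0.24.0.

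Each mark was fitted over its 6 libraries with DESeq2 1.42.0 in R 4.3.3 (Wald test, line as the term, 3 residual degrees of freedom, Benjamini-Hochberg adjustment over all peaks, called at an adjusted p under 0.05). edgeR 4.0.16, other size factors, filters and peak rules were alternatives. Same-numbered replicates deviated together (every correlation over 0.1), and a second fit took that number as a blocking factor. The named peaks were, for each mark and comparison, the 4 peaks highest and 4 lowest in log2 fold change that were called, had a mean count of 50 or more and showed no overlap between groups, the 5 in each direction called in both marks, the 5 with the highest H3K4me3 per kb, and list members that were called or high. Peaks at or beside listed noncoding RNA starts were added, and peaks whose marks differed were chosen after their values were seen. A group at 0 was given a limit of 3 counts, which covers counting error only. The peaks, lists and tests were chosen with earlier results of these data known. Items withheld from this text are not reported here. Duplicated sequence limits how surely reads are placed.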

Additional observations from a re-analysis of the deposited data

Results flagged for a closer look

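The results below stood out because the peak was among those named for the size of their change in a comparison or for calls in both marks, and the direct test of BrM2 against LM2, which is the difference between the changes of the 2 lines from Par, was called (DESeq2, adjusted p under 0.05). Some were named from that same test, and for those it is no further evidence. Values are fitted log2 fold changes of BrM2 against LM2. Where a line had 0 or few counts they depend on the fit and are no bounds.

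H3K4me3 was higher in BrM2 near DPYD (4.49), at ENSG00000288552 (4.83), at ENSG00000258081 (7.48), at ENSG00000267279 (4.56), at ENSG00000277693 (1.30), near MRPL39 (5.11), near ADAMTS5 (5.31), near NFKBIZ (3.88), near RTP3 (5.25), at AFAP1-AS1 (2.68), near CDH18 (4.98), near PRDM9 (6.54) and near RIMS2 (3.16). It was lower near IVNS1ABP (-7.74), near GALNT9 (-5.57), at G2E3-AS1 (-4.13), at GP6-AS1 (-3.81), near CDCA7 (-7.20), near RNF32 (-3.35), at ENSG00000287352 (-5.38), at FAM86B3P (-2.78) and at ENSG00000290644 (-1.98).

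H3K27ac was higher in BrM2 near SLC1A7 (2.01), near CNTN5 (2.42), at ENSG00000288552 (3.49), at ENSG00000258081 (4.39), near GOT2 (1.93), at both peaks near PIEZO2 (1.26 and 3.32), near NETO1 (5.32), near ZNF675 (2.90), near MRPL39 (5.33), near ADAMTS5 (4.56), near CADM2 (2.92), near CDH18 (4.11), near PRDM9 (4.40) and near PRSS1 (1.76). It was lower near IVNS1ABP (-3.71), near DLEU7 (-3.93), at G2E3-AS1 (-3.16), near CHSY1 (-2.88), at GP6-AS1 (-3.03), near CDCA7 (-4.51), near INPP5D (-1.71), near IRX1 (-2.52), at ENSG00000287352 (-3.95), at FAM86B3P (-3.68), near PRAG1 (-2.62) and at LINC01505 (-2.06).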

How the results depend on the processing

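Counts of calls depended on the fit, and the split between higher and lower moved as well. In LM2 against Par, edgeR with the block gave 489 higher and 261 lower for H3K4me3, beside 110 and 16 by DESeq2 without it. For H3K27ac these were 534 and 390, beside 202 and 40. The H3K27ac split of BrM2 against LM2 turned in some settings, as given above. For H3K4me3 in LM2 against Par, BrM2 against Par and BrM2 against LM2 (126, 209 and 189 calls), a filter of at least 10 counts in every library gave 23, 41 and 25, the replicate block 347, 492 and 607 and edgeR with the block 750, 1009 and 1269, while edgeR gave 80 in LM2 against Par. Leaving out 1 library gave 16 to 95, 66 to 186 and 34 to 160 calls. For H3K27ac (242, 388 and 208 calls) edgeR with the block gave 924, 1207 and 1022, the block 366 and 396 in LM2 against Par and BrM2 against LM2, the filter 247 in BrM2 against Par, removal of 5 Mb window medians 110 and edgeR 337 in BrM2 against LM2, and leaving out 1 library 74 to 195, 101 to 299 and 23 to 173. The lowest counts came without Par replicate 2, Par replicate 2 and BrM2 replicate 2 for H3K4me3, and without LM2 replicate 1, BrM2 replicate 1 and BrM2 replicate 1 for H3K27ac.

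The median log2 fold change of H3K27ac was 0.0351 in LM2 against Par with window medians removed, 0.0869 with promoter-peak and 0.0357 with total-count size factors, 0.0891 in BrM2 against Par with promoter-peak size factors, and -0.0226 and -0.0339 in BrM2 against LM2 with promoter-peak and total-count size factors. Without 1 library it ran from -0.0758 to 0.0345, 0.0145 to 0.0794 and 0.00731 to 0.0807, and that of H3K4me3 from -0.44 to 0.41, -0.17 to 0.53 and -0.23 to 0.56, so the sign of the H3K4me3 medians is not settled. The causes were not tested. The mark difference was called 17, 36 and 33 times with the block, and 0 to 2, 0 to 16 and 1 to 9 times without 1 library. Counting noncoding starts within 2 kb gave 22.9% of the peaks. Per 100 promoter reads the set took 4.66, 4.87 and 5.32 H3K4me3 and 31.7, 33.5 and 34.4 H3K27ac reads in Par, LM2 and BrM2. Other peak rules gave 6284 peaks (over 5 kb), 4141 (over 20 kb), 4720 (every transcript of a coding gene) and 5047 (50% covered). Of 99 named results, 40 stayed called in every setting in which they could be fitted, 55 lost the call without 1 library and 0 reversed.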
